A study of Mus musculus with 49 samples.

Results

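Whole ankles on day 12 of arthritis induced by K/BxN serum were compared with whole ankles on day 0. The members were chosen by their labels, as the 3 arrays of ankles on day 12 and the 4 arrays of ankles on day 0, together 7 of the 49 arrays of the series. The series followed joint tissue, cells of the synovial fluid and blood leukocytes over the days after serum with 1 microarray per sample. All mice were male, 6 weeks old by the labels and of the B6 background, and arthritis was induced with serum of K/BxN mice. Ankles of day 12 were taken 12 days after the first serum injection, and ankles of day 0 on the day of that injection. Other ankles came from day 3 (3 arrays), day 7 (4 arrays) and day 18 (3 arrays), and blood leukocytes left after lysis of the red cells from day 12 and day 0 (3 arrays each). The fits used all 19 ankle arrays, among them those of day 1 after serum, a day that was not compared. The labels do not settle whether day 0 ankles were taken before or after the injection, and so whether those mice had received serum. The description of day 0 replicate 2 opens with another short name than its title, while its other labels place it at day 0. Nothing in the labels says whether replicate ankles came from separate mice, so that a p-value measures only how far these arrays lie apart, a spread that may be technical.

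K/BxN mice carry autoantibodies against the enzyme glucose-6-phosphate isomerase, and their serum transfers arthritis to healthy mice through immune complexes, complement, Fc receptors and neutrophils. Neutrophils are drawn into the joint by CXC chemokines and lipid mediators, monocytes by CC chemokines. Once inflammation is established, fibroblasts of the synovial lining multiply and secrete enzymes that break down cartilage matrix, and osteoclasts erode bone. A whole ankle also contains skin, muscle, tendon, fat, nerve and marrow, so that in every result below fewer cells of a type and less RNA per cell cannot be told apart.

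The values were RMA intensities, given here on the log2 scale, 1 probe set for each of 8251 genes. Array medians of the ankle arrays lay between 58.6 and 64.1 in intensity. Across all probe sets, controls included, replicates correlated at r from 0.967 to 0.991 at day 12 and from 0.941 to 0.993 at day 0. The median of the negative control probe sets was 4.40, and their 95th percentile, 6.85, is called the background level below. A fold is given only where both group means lay above it, since with either mean under it the true difference may be larger. Tissue markers fitted a joint in part. At day 12 and at day 0, 6 and 5 of 13 measured cartilage genes and 13 and 14 of 20 skeletal muscle genes had group means above background, whereas 0 of 7 osteoblast genes did on either day and 3 and 2 of 18 genes of epidermis and hair.

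Liver transcripts were present in replicate 1 of both days. Albumin (Alb) stood at log2 10.65, 4.59 and 4.62 at day 12 and at 8.95, 5.19, 5.03 and 4.79 at day 0. The summed intensity of 24 liver genes was 16017 in day 12 replicate 1 and at most 1646 in the other day 12 ankles, against 7867 in day 0 replicate 1 and at most 2798 in the other day 0 ankles. In total 4 ankle arrays of the series carried such transcripts, with Alb above log2 6, namely replicate 1 of days 0, 1, 7 and 12. Results are also given without those 4. A second measure that moved with the days was the beta-actin ratio, the log2 ratio between the control probe sets at the 3' and 5' ends of that transcript, which tracks RNA integrity. It was 3.26, 4.25 and 3.62 at day 12 and 3.50, 2.90, 2.81 and 2.73 at day 0, so that day 12 was higher with 1 overlapping array, day 0 replicate 1.

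Ankles at day 12 had more transcript than ankles at day 0 of the neutrophil attractants Cxcl1, Cxcl2 and Cxcl5, the monocyte attractants Ccl2 and Ccl7, the calgranulins S100a8 and S100a9 and the metalloproteinases Mmp3, Mmp9 and Mmp13. The serum amyloid gene Saa3 and the collagenase gene Mmp13 were among the largest rises, and the lymphatic receptor gene Lyve1 and the actin-severing protein gene Gsn the largest falls. With limma and Benjamini-Hochberg adjustment over 8251 genes, 154 genes were higher (1.87%) and 113 lower (1.37%) at day 12 at an adjusted p under 0.05, together 267 (3.24%). The median difference of all genes was -0.03 on the log2 scale. Rises were larger than falls, with a median of 1.1 among the genes that rose and -0.91 among those that fell. A log2 difference beyond 2 was reached by 24 rises and 2 falls, and one beyond 1 by 96 rises and 43 falls. In 147 of the 154 rises and 112 of the 113 falls the arrays of the 2 days did not overlap, which was so for 378 (4.58%) and 512 (6.21%) of all genes. For 103 of the rises the day 0 mean was under background, and for 61 of these the day 12 mean was as well, Cxcl2 and Ccl7 among them. For 47 of the falls the day 12 mean was under background. Of the called genes, 75 rises and 24 falls were called in each of the 7 fits that left out 1 array. Without the 4 ankle arrays with liver transcripts 381 genes were called, 163 higher and 218 lower, so that the excess of rises over falls turned round. With the beta-actin ratio in the fit 95 were called, 65 higher and 30 lower.

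The promoters of 5 of the genes that rose most are shown because the values below turn on these genes, a pair of neutrophil attractants, a pair of matrix enzymes and the gene with the largest rise. Each is the 250 bases before the start of transcription, 5' to 3' on the strand of the gene, from RefSeq on GRCm38.p6. Capitals mark matches to the NF-kB letters (GGG, any 2 bases, then TTTCC) in Cxcl1 and Cxcl2, to the AP-1 letters TGANTCA in Mmp3 and Mmp13, and to the C/EBP letters TTGCNNAA in Mmp3 and Saa3, searched on both strands.
Cxcl1: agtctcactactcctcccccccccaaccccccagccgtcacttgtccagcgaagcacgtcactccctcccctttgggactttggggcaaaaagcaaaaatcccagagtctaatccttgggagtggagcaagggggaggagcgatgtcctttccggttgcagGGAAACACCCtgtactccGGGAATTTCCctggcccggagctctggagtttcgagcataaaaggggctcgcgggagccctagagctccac
Cxcl2: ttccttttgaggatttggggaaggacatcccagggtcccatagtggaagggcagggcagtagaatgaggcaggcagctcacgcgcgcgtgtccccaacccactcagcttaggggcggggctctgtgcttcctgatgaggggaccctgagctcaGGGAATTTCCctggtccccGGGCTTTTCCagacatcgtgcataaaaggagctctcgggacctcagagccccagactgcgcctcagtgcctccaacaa
Mmp3: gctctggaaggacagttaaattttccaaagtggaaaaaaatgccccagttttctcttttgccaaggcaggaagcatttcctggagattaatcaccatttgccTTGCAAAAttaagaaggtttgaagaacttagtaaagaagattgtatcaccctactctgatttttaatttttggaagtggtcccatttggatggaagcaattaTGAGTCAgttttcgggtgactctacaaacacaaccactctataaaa
Mmp13: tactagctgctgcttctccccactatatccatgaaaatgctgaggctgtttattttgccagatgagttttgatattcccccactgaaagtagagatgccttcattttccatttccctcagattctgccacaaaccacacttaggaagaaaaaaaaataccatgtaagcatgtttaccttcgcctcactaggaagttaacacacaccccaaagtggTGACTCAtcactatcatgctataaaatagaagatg
Saa3: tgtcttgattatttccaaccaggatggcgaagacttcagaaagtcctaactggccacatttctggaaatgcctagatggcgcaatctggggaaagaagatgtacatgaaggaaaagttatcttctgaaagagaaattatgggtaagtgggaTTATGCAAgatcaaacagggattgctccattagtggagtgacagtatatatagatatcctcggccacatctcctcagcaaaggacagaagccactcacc
The stretches lie at chr5:90890995-90891244 (Cxcl1, plus strand), chr5:90903649-90903898 (Cxcl2, plus strand), chr9:7445572-7445821 (Mmp3, plus strand), chr9:7272264-7272513 (Mmp13, plus strand) and chr7:46715677-46715926 (Saa3, minus strand).

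NF-kB, AP-1 and C/EBP are families of transcription factors that respond to cytokines, and matches to their letters are a description of the sequence, not of binding. Cxcl1 and Cxcl2, both on chromosome 5, each held 2 NF-kB matches, which began 89 and 71 bases before the start in Cxcl1 and 97 and 78 bases before it in Cxcl2. An AP-1 match began 46 bases before the start of Mmp3 and 35 bases before that of Mmp13. A C/EBP match began 148 bases before the start of Mmp3 and 99 bases before that of Saa3. No match overlapped another in these 5 sequences, each of which held a match. The promoters of C1qtnf3, Clec4d and S100a8, also among the largest rises, held no match to any of these letters. Of the 15 largest rises, 11 genes had promoters in the table, and 3 of them held an AP-1, 3 an NF-kB and 4 a C/EBP match within 250 bases before and 50 after the start. Of the 15 largest falls, 11 genes had promoters, of which 0 held an AP-1, 0 an NF-kB and 1 (Nr1d1) a C/EBP match. Some genes have several promoters in the table. Overlapping promoters of Il1rn hold the same NF-kB match, which is counted in each of them and raises the NF-kB share below. Counted by promoter, 23.1% of the 13 promoters of the rises held an AP-1, 30.8% an NF-kB and 30.8% a C/EBP match, against 7.81%, 1.63% and 10.8% of all 32851 promoters of that length. Of the 14 promoters of the falls 7.14% held a C/EBP match.

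Among acute phase genes, Saa3, an inducible serum amyloid A made in inflamed tissue, had log2 intensities of 11.947, 12.097 and 11.450 at day 12 and of 5.81, 6.77, 5.52 and 6.48 at day 0. Every day 12 ankle stood far above every day 0 ankle. The rise was 5.69 ± 0.35 (SE, limma adjusted p = 4.23e-08), measured from a day 0 mean under background. S100a8 and S100a9 encode the calgranulins, calcium-binding proteins that neutrophils and activated monocytes carry in bulk. S100a8 stood at 9.78, 9.18 and 9.85 at day 12 and at 6.98, 7.58, 6.33 and 6.89 at day 0, a 6.30-fold rise (2.65 ± 0.27, adjusted p = 8.27e-06). S100a9 rose by 2.80 ± 0.30 (adjusted p = 1.40e-05). Together with Il1rn these were the 4 of 10 measured acute phase genes that rose, against 1.87% of all genes, and 0 fell. The median of the list was 0.64.

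CXCR2 is the neutrophil receptor for Cxcl1, Cxcl2 and Cxcl5, and all 3 ligand genes rose. Cxcl1 had 9.54, 8.58 and 8.74 at day 12 and 6.07, 5.82, 4.79 and 7.35 at day 0. Cxcl2 had 6.34, 5.98 and 6.65 at day 12 and 3.74, 3.56, 3.89 and 4.26 at day 0. Cxcl5 had 5.92, 6.92 and 8.22 at day 12 and 4.29, 4.10, 4.08 and 4.29 at day 0. In all 3 ligands the days did not overlap, and in Cxcl5 the day 12 ankles were spread widely. The rises were 2.94 ± 0.47 (Cxcl1, adjusted p = 0.00120), 2.46 ± 0.24 (Cxcl2, adjusted p = 6.31e-06) and 2.83 ± 0.45 (Cxcl5, adjusted p = 0.00118). Cxcl2 stayed under background on both days. Another Cxcl1 probe set gave 2.46. Cxcr2 itself, the receptor gene, differed by 0.13 ± 0.11 (adjusted p = 0.679) with both means under background. The list thus had 3 of 4 measured genes higher, against 1.87% of all genes, 0 lower and a median of 2.64.

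CC chemokines mainly draw in monocytes and lymphocytes. Of 14 measured, 3 rose, against 1.87% of all genes, and 0 fell, with a median of 0.16. Ccl2, the main monocyte attractant, had 8.53, 8.22 and 7.46 at day 12 and 4.68, 6.14, 4.69 and 5.32 at day 0. The groups were clearly apart, with a rise of 2.86 ± 0.38 (adjusted p = 0.000199). Ccl7, which also attracts monocytes, rose by 1.87 ± 0.26 (adjusted p = 0.000393), under background on both days. Ccl6 rose 1.81-fold (0.85 ± 0.19, adjusted p = 0.0151), with overlapping arrays, and the fits that left out day 0 replicate 3 (adjusted p = 0.0661), or replicate 2 (0.0730) or 3 (0.106) of day 12, did not call it. Ccl3 differed by 0.58 (adjusted p = 0.0570).

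Among 23 cytokines and their receptors 4 rose, 1 fell and the median was 0.05, while 1.87% of all genes rose and 1.37% fell. Il1rn, the natural antagonist of the interleukin 1 receptor, had 8.35, 7.23 and 7.65 at day 12 and 5.27, 4.98, 4.80 and 5.35 at day 0. Il1b, the agonist of that receptor, had 7.19, 6.18 and 7.25 at day 12 and 5.29, 4.72, 5.17 and 5.21 at day 0. Agonist and antagonist were thus both higher in every day 12 ankle, by 1.78 ± 0.28 for Il1b (adjusted p = 0.00102) and 2.64 ± 0.31 for Il1rn (adjusted p = 5.29e-05). The receptor gene Il1r1 rose by 1.04 and Il6 by 0.65, both under background and both called in 1 of the 7 fits that left out 1 array (adjusted p = 0.254 for Il6 without day 12 replicate 3, 0.164 for Il1r1 without it). With a floor at the 20th percentile of intensity no difference was left in Il6, and Il1r1 did not pass (adjusted p = 0.0735). Csf1, a growth factor of macrophages, was the member that fell, by 0.61 on the log2 scale (adjusted p = 0.0390), and was called in 2 of those 7 fits, with 0.185 as adjusted p without day 12 replicate 2. Socs3, a feedback inhibitor of cytokine signalling, rose by 1.90 ± 0.37 (adjusted p = 0.00676), and by 0.94 in another probe set. Without the ankle arrays with liver transcripts its difference was 1.54 (adjusted p = 0.0647).

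**Figure D1:**
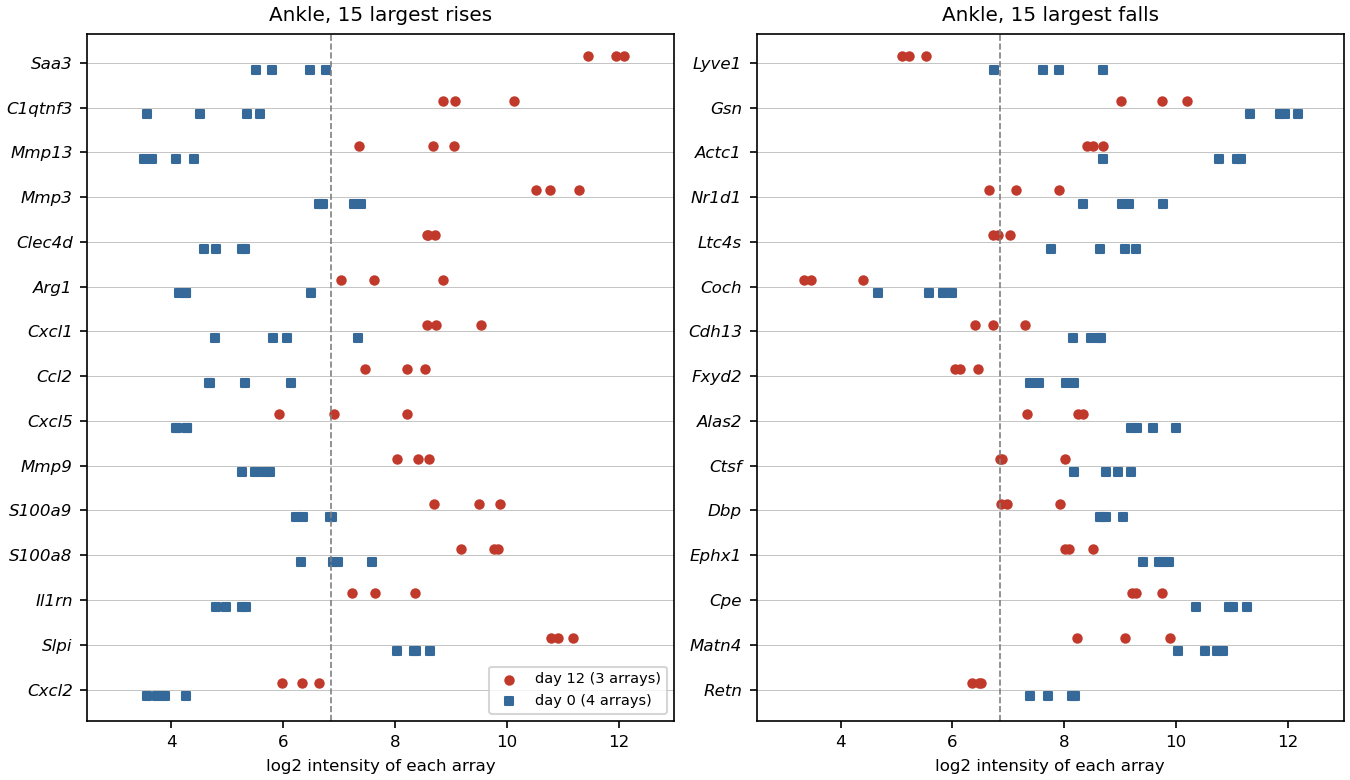
Log2 intensity of each ankle array (horizontal axis) for the 15 genes with the largest rise (left) and the 15 with the largest fall (right), day 12 as red circles and day 0 as blue squares; the dashed line marks the background level, 6.85. The days do not overlap in any of the 30 genes, which was part of how they were chosen, and day 0 lies mostly left of the line among the rises.

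Matrix-degrading enzymes were among the largest rises. Mmp13, the main collagenase of mouse joints, had 8.68, 7.36 and 9.07 at day 12 and 3.66, 4.41, 3.51 and 4.09 at day 0. Mmp3, stromelysin, which cleaves proteoglycan and activates other metalloproteinases, had 11.29, 10.77 and 10.53 at day 12 and 6.65, 7.4, 7.26 and 6.72 at day 0. No array of one day came near the other day in either gene. Mmp3 rose 14.5-fold (3.86 ± 0.29) and Mmp13 by 4.45 ± 0.33 from a day 0 mean under background (both adjusted p = 2.67e-07). Mmp9, a gelatinase of neutrophils and osteoclasts, rose by 2.80 ± 0.25 (adjusted p = 2.16e-06), while another probe set of Mmp9 gave 1.15. Adam8, a sheddase of activated myeloid cells, rose by 1.28 ± 0.16 (adjusted p = 0.000168). These were 4 of 20 measured proteases, against 1.87% of all genes, with 0 lower and a median of 0.13. Cathepsin S (Ctss), a protease of antigen-presenting cells, differed by 1.2 (adjusted p = 0.0659).

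Of 7 protease inhibitors 2 rose and 1 fell, with a median of 0.17, while 1.87% of all genes rose and 1.37% fell. Timp1, which inhibits metalloproteinases, had 12.386, 12.106 and 12.305 at day 12 and 10.25, 10.10, 10.01 and 10.40 at day 0, a 4.22-fold rise (2.08 ± 0.24, adjusted p = 5.13e-05). Slpi, an inhibitor of neutrophil elastase, rose 6.19-fold (2.63 ± 0.26, adjusted p = 6.31e-06). Probe sets of these genes disagreed. A second one of Timp1 gave 0.02, and 3 others of Slpi gave 4.57, 0.33 and 0.58. Cystatin C (Cst3), an inhibitor of cysteine proteases, fell by 1.15 on the log2 scale (adjusted p = 0.0247), with a call in 2 of 7 fits without 1 array and an adjusted p of 0.150 without day 12 replicate 2.

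Matrix glycoproteins of remodelling tissue rose beside the proteases. Tenascin C (Tnc) had 7.74, 8.12 and 7.97 at day 12 and 5.59, 6.20, 5.72 and 5.65 at day 0. Periostin (Postn) had 10.59, 11.07 and 10.65 at day 12 and 7.13, 9.50, 9.04 and 8.58 at day 0. Day 12 ankles were higher throughout, and in Postn the day 0 ankles differed widely, with replicate 1 lowest. Tnc rose by 2.15 ± 0.22 (adjusted p = 1.13e-05) and Postn 4.60-fold (2.20 ± 0.41, adjusted p = 0.00475). Thbs2, thrombospondin 2, rose by 1.03 ± 0.16 (adjusted p = 0.00118), under background on both days. Fbln2, fibulin 2, rose 2.18-fold (adjusted p = 0.0399), and lost its call without day 12 replicate 1 (adjusted p = 0.120) and in 5 more fits without 1 array, among them day 12 replicate 2 (0.113). The list of collagens and matrix glycoproteins had 4 of 23 members higher, against 1.87% of all genes, 0 lower and a median of 0.31.

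C1qtnf3, which encodes the secreted protein CTRP3 and is known from growing cartilage, had the rise next in size to that of Saa3. It stood at 8.86, 10.13 and 9.07 at day 12 and at 3.57, 5.58, 5.36 and 4.52 at day 0, a difference of 4.60 ± 0.46 (adjusted p = 7.22e-06). Even the lowest day 12 ankle was far above all day 0 ankles. Crabp2, a carrier of retinoic acid, rose by 2.31 ± 0.23 (adjusted p = 7.22e-06).

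Cartilage genes moved in both directions, with 1 of 13 higher and 2 lower, against 1.87% and 1.37% of all genes. Their median was -0.07. Aggrecan (Acan), the large proteoglycan of cartilage, had 7.71, 7.98 and 7.38 at day 12 and 6.11, 5.96, 5.83 and 6.33 at day 0. Its rise was 1.63 ± 0.31 (adjusted p = 0.00487). Cilp2, an intermediate-layer protein of cartilage, had 11.54, 11.29 and 11.84 at day 12 and 12.42, 12.81, 12.99 and 13.14 at day 0, a 2.43-fold fall (-1.28 ± 0.26, adjusted p = 0.00745). Chondroadherin (Chad), which binds chondrocytes to collagen, fell 2.17-fold (-1.12 ± 0.23, adjusted p = 0.00900). The days did not overlap in any of the 3. A second Cilp2 probe set gave -1.53. Cilp2 lost its call without day 12 replicate 2 (adjusted p = 0.0661). With the beta-actin ratio in the fit Acan (adjusted p = 0.149), Cilp2 (0.147) and Chad (0.185) were not called. The mean log2 intensity of the 13 genes overlapped between the days, at 5.75 to 6.05 at day 12 and 5.82 to 6.10 at day 0. That mean gives dim and bright genes equal weight, unlike the summed intensities given for other lists. It therefore does not reflect the weight of a bright gene such as Cilp2.

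Of the bone genes 1 was called. Tnfsf11, the gene of RANKL, the cytokine that drives osteoclast formation, had 4.54, 4.90 and 5.16 at day 12 and 3.90, 3.27, 3.29 and 3.60 at day 0. All of these lie under background, and the days did not overlap. The rise was 1.35 ± 0.23 (adjusted p = 0.00183), 0.67 with a floor at the 20th percentile (adjusted p = 0.0912). It was the 1 of 13 members of the osteoclast and RANKL list that rose, against 1.87% of all genes. That list had 0 lower and a median of 0.06. In the osteoblast list 0 of 7 genes were called and 0 had a mean above background. Of 11 secreted antagonists of Wnt and BMP, 2 rose, 0 fell and the median was -0.10. Sfrp2 rose by 1.19 (adjusted p = 0.00900), 0.0855 as adjusted p without day 12 replicate 2. Dkk3 rose 2.06-fold (adjusted p = 0.0289) and was called in 2 of 7 fits without 1 array (0.153 without day 12 replicate 2).

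Synovial fibroblast markers had 3 of 15 higher, against 1.87% of all genes, 0 lower and a median of 0.29. Vcam1, an adhesion molecule of lining fibroblasts and activated endothelium, had 7.76, 8.10 and 8.11 at day 12 and 5.14, 6.94, 5.87 and 6.01 at day 0. It rose by 2.00 ± 0.33 (adjusted p = 0.00143), and its other probe sets gave 0.43 and 1.09. Pdpn, podoplanin of the lining, rose by 0.61 (adjusted p = 0.00567), under background on both days. Postn, given above, was the other member. Lumican (Lum), a small proteoglycan of connective tissue, differed by 1.89 ± 0.58 (adjusted p = 0.0866). The summed intensity of the 15 markers overlapped between the days, at 17369 to 21127 on day 12 and 12727 to 19193 on day 0.

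**Figure D2:**
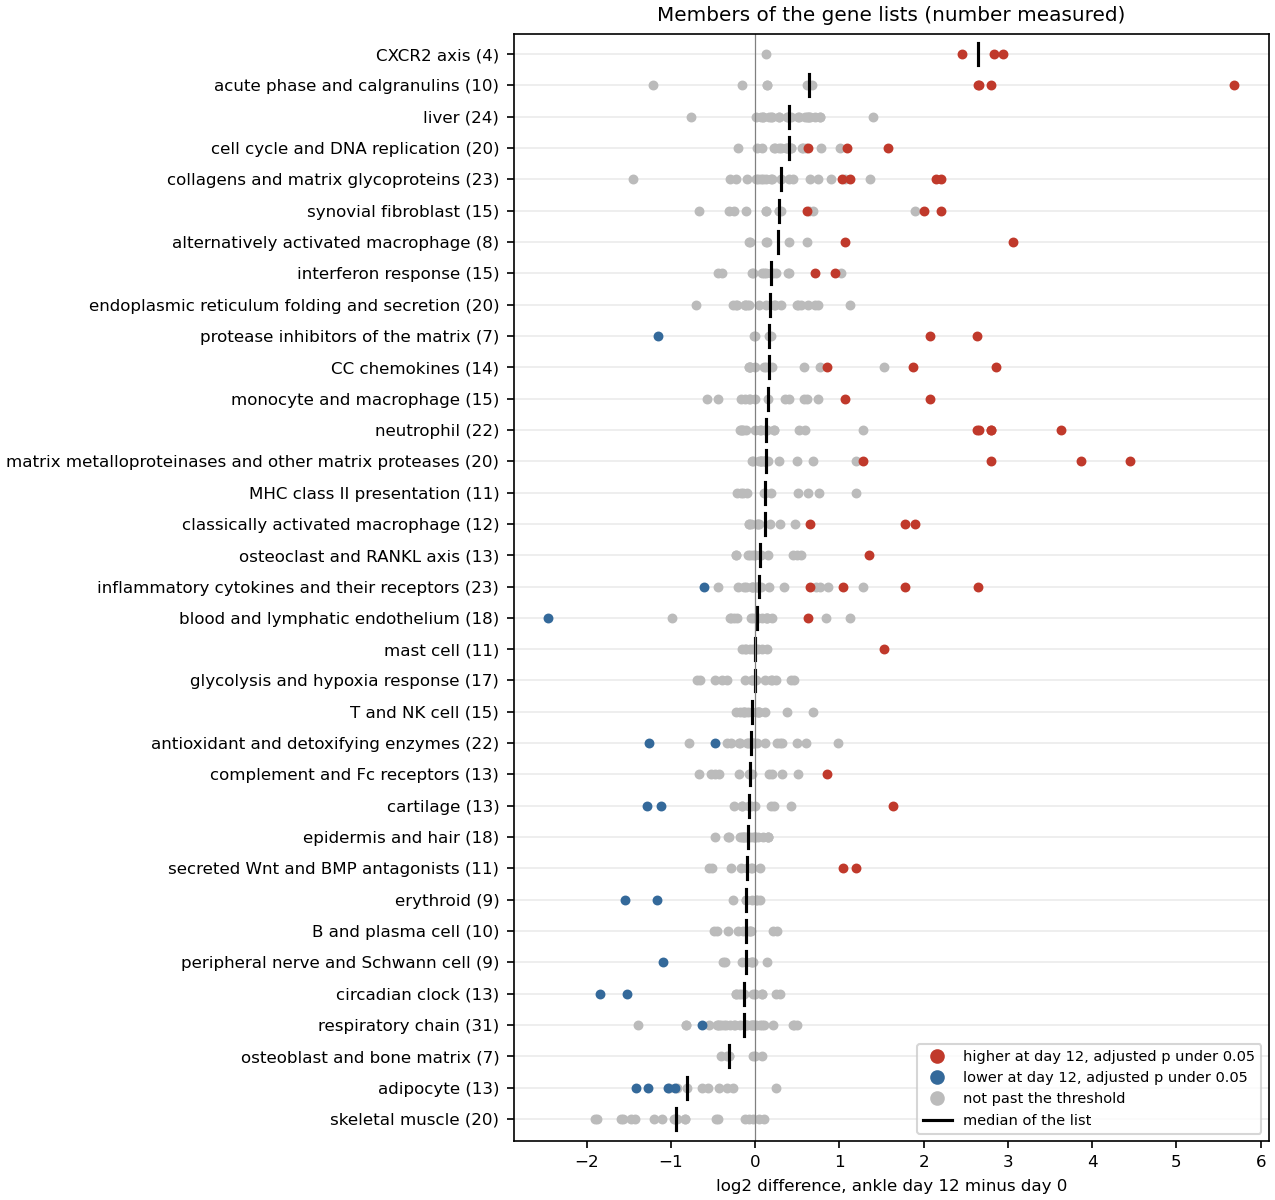
Log2 difference of day 12 minus day 0 (horizontal axis) for every measured member of each gene list (rows, number measured in brackets), red where higher and blue where lower at an adjusted p under 0.05, grey otherwise; the black bar is the median of the list. The CXCR2 list has the highest median, 2.64, and the skeletal muscle list the lowest, -0.94, with 0 of its 20 members called.

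Of 22 measured neutrophil markers 5 rose, against 1.87% of all genes, 0 fell and the median was 0.13. Clec4d, a C-type lectin of neutrophils and monocytes, had 8.57, 8.58 and 8.71 at day 12 and 4.81, 5.26, 4.59 and 5.32 at day 0, a rise of 3.63 ± 0.30 (adjusted p = 7.46e-07). The day 12 ankles were close together and far above day 0. The other members that rose were S100a8, S100a9, Mmp9 and Slpi, given above. The summed intensity of the list was 6273, 4988 and 6456 at day 12 and 1798 to 2080 at day 0, a sum in which bright members weigh most. In synovial fluid cells of day 12 the same sum was 19807 to 23925, which was not tested against ankles. The labels name Trizol for these cells, and both Trizol and an SDS and urea extraction for ankles. Lactoferrin (Ltf), a protein of neutrophil granules made while the cells mature in the marrow, had 5.99, 5.99 and 6.23 at day 12 and 6.12, 6.18, 6.37 and 6.26 at day 0, and the granule genes Camp and Ngp also overlapped between the days (adjusted p = 0.723 for Ltf, 0.729 for Camp and 0.914 for Ngp). These 3 were chosen after their values were seen.

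Of 15 monocyte and macrophage markers 2 rose, against 1.87% of all genes, 0 fell and the median was 0.16. Mpeg1, perforin 2 of macrophages, had 9.42, 9.47 and 9.79 at day 12 and 7.29, 7.81, 7.17 and 7.66 at day 0, a 4.22-fold rise (2.08 ± 0.18, adjusted p = 1.80e-06). Msr1, a scavenger receptor, rose by 1.07 ± 0.18 (adjusted p = 0.00182). A second probe set gave 0.01 for Mpeg1 and 0.02 for Msr1. Arg1, an arginase found in liver and in macrophages after alternative activation, had 8.86, 7.04 and 7.62 at day 12 and 6.49, 4.26, 4.13 and 4.26 at day 0. Replicate 1 of either day, the one with liver transcripts, was the highest of its day. The rise was 3.05 ± 0.60 (adjusted p = 0.00688), and without the ankle arrays with liver transcripts it was 3.11 (adjusted p = 0.00337). With the beta-actin ratio in the fit it was 2.51 (adjusted p = 0.167). Arg1 and Msr1 were the 2 of 8 members of the alternative activation list that rose, and Il1b, Socs3 and Il6 the 3 of 12 of the classical activation list. Neither list had a member lower, and the medians were 0.27 and 0.11. Of 13 complement and Fc receptor genes, through which immune complexes act, 1 rose and 0 fell, with a median of -0.06. It was the inhibitory Fc receptor gene Fcgr2b, by 0.85 (adjusted p = 0.0126), under background on both days and with an adjusted p of 0.0740 without day 12 replicate 2.

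Lymphocyte lists held no called gene, 0 of 15 for T and NK cells and 0 of 10 for B and plasma cells, with medians of -0.03 and -0.11. Of 11 mast cell genes 1 rose and 0 fell, with a median of 0.00, while 1.87% of all genes rose. It was Hdc, the enzyme that makes histamine, with 7.83, 6.70 and 7.55 at day 12 and 5.86, 5.83, 5.72 and 5.92 at day 0. The rise was 1.53 ± 0.26 (adjusted p = 0.00183). Among 11 genes of class II presentation 0 were called, and H2-Aa differed by 0.76 (adjusted p = 0.193). Interferon response genes had 2 of 15 higher, 0 lower and a median of 0.19. These were Ifit1, by 0.94 ± 0.17 (adjusted p = 0.00332) and under background on both days, and Isg15, by 0.71 (adjusted p = 0.0274), which was called in 3 of the 7 fits without 1 array (adjusted p = 0.0938 when day 12 replicate 1 was left out).

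Of 20 cell cycle genes 3 rose, against 1.87% of all genes, 0 fell and the median was 0.41. The difference was positive in 19 of the 20, and in 3604 of all 8251 genes. Top2a, the topoisomerase of dividing cells, had 6.25, 7.01 and 6.90 at day 12 and 5.16, 5.29, 4.99 and 5.12 at day 0. Its rise was 1.58 ± 0.24 (adjusted p = 0.000757). Cdk1, the kinase of mitotic entry, rose by 1.09 ± 0.21 (adjusted p = 0.00694), and with the beta-actin ratio in the fit its adjusted p was 0.159. Birc5, survivin, rose by 0.63 (adjusted p = 0.0146), with 0.108 as adjusted p without day 12 replicate 2 and 0.0939 without day 12 replicate 3.

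The largest fall was that of Lyve1, the hyaluronan receptor of lymphatic vessels and some tissue macrophages, which had 5.10, 5.53 and 5.22 at day 12 and 6.74, 8.69, 7.62 and 7.91 at day 0, a fall of 2.46 on the log2 scale (SE 0.36, adjusted p = 0.000702) to a mean under background. All day 12 ankles lay below all day 0 ankles. Of 18 endothelial genes it was the 1 that fell, 1 rose and the median was 0.02, while 1.37% of all genes fell and 1.87% rose. The one that rose was Selp, P-selectin, by 0.63 (adjusted p = 0.0390), and called in 2 of 7 fits without 1 array (0.145 without day 12 replicate 2). Emcn differed by 0.84 (adjusted p = 0.0673), while its other probe sets gave -0.07 and -0.12. Aqp1 differed by -0.99 (adjusted p = 0.0685), and by -0.32 in another probe set.

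Gelsolin (Gsn) had 9.74, 9.02 and 10.19 at day 12 and 11.85, 11.32, 12.18 and 11.95 at day 0, a 4.51-fold fall (-2.17 ± 0.29, adjusted p = 0.000199). Ltc4s, which makes the mast cell and macrophage mediator leukotriene C4, fell 3.57-fold (-1.84 ± 0.32, adjusted p = 0.00297), while a second probe set gave 0.05. T-cadherin (Cdh13), of vessels and muscle, fell by 1.67 on the log2 scale (SE 0.25, adjusted p = 0.000914). Fxyd2, a regulatory subunit of the sodium pump, had 6.45, 6.14 and 6.04 at day 12 and 7.39, 8.17, 7.55 and 8.04 at day 0. Its difference was -1.58 ± 0.20 (adjusted p = 0.000156). Ephx1, a detoxifying epoxide hydrolase, fell 2.79-fold (adjusted p = 0.00246) and was at 0.0506 with the beta-actin ratio in the fit.

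Of 13 adipocyte genes 4 fell, against 1.37% of all genes, 0 rose and the median was -0.81. Resistin (Retn), a hormone of mouse fat, had 6.36, 6.47 and 6.51 at day 12 and 8.15, 7.72, 8.19 and 7.4 at day 0. The fall was 1.42 on the log2 scale (adjusted p = 0.000317), with no overlap. Car3, carbonic anhydrase of fat and muscle, fell 2.04-fold and Lipe, the hormone-sensitive lipase, fell 1.94-fold (both adjusted p = 0.0151), and Cidec, a lipid droplet protein, fell by 1.27 on the log2 scale (adjusted p = 0.0381). Without day 12 replicate 3 these calls were lost, with adjusted p of 0.122 for Car3, 0.104 for Lipe and 0.173 for Cidec. Without day 0 replicate 3 they were lost as well (0.0591, 0.0516 and 0.0551 in the same order of genes), and so were Car3 (0.0797) and Cidec (0.181) without day 12 replicate 2 and Cidec without day 0 replicate 1 (0.103) or 2 (0.0574). The summed intensity of the list was 4102 to 5608 at day 12 and 6435 to 11006 at day 0.

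Markers of muscle, red cell precursors and nerve gave few calls. Over all 8251 genes 1.37% were called lower, and 512 (6.21%) were lower in every day 12 ankle. Of 20 skeletal muscle genes 0 were called, 7 were lower in every day 12 ankle and the median was -0.94. Acta1, skeletal actin, had 11.18, 10.24 and 10.68 at day 12 and 11.25, 12.26, 12.94 and 12.60 at day 0 (adjusted p = 0.134). The summed muscle intensity was 13400, 9135 and 9404 at day 12 and 13894, 25052, 33318 and 24307 at day 0, so that day 0 replicate 1, which held liver transcripts, was near the day 12 ankles. Cardiac actin (Actc1) fell 3.69-fold (adjusted p = 0.0359), with day 0 replicate 1 at 8.70 against 10.77 to 11.16 in the other day 0 ankles. It was called in 1 of 7 fits without 1 array, and its adjusted p was 0.160 without day 12 replicate 2. Of 9 erythroid genes 2 fell, 0 rose and the median was -0.10. They were Alas2, the heme enzyme of red cell precursors, 2.92-fold lower (adjusted p = 0.0207, 0.174 without day 12 replicate 2 and 0.0745 without day 0 replicate 4), and Hba-a1, 2.23-fold lower (adjusted p = 0.0362, 0.199 without day 12 replicate 2). Hba-a1 also lost its call without day 0 replicate 3 (adjusted p = 0.0935) or 4 (0.116) and without day 12 replicate 1 (0.0850). The Schwann cell protein S100b was the 1 of 9 nerve genes that fell, 0 rose and the median was -0.11. S100b fell by 1.09 on the log2 scale (adjusted p = 0.00745), and its difference was -0.91 (adjusted p = 0.0649) without the ankle arrays with liver transcripts.

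**Figure D3:**
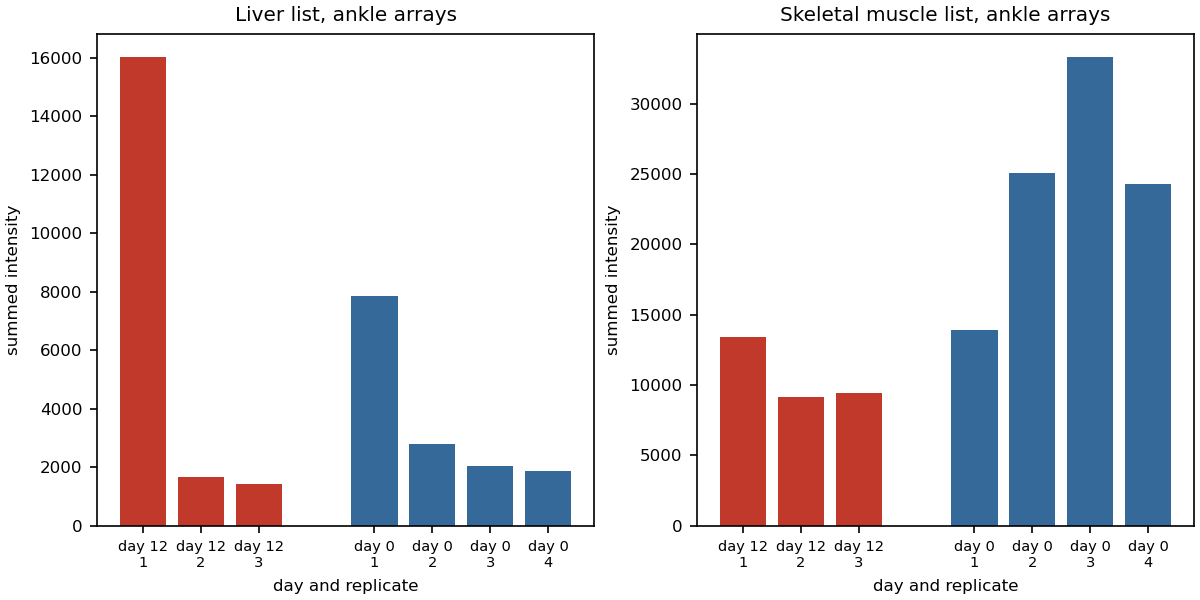
Summed intensity (vertical axis, linear, from 0) of the liver list (left) and of the skeletal muscle list (right) in each ankle array, day 12 in red and day 0 in blue. Liver transcripts stand out in replicate 1 of both days, at 16017 and 7867, and muscle is lowest in the 3 day 12 ankles, with day 0 replicate 1 next at 13894.

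Of 13 circadian clock genes 2 fell, 0 rose and the median was -0.13, while 1.37% of all genes fell. Nr1d1, the repressor REV-ERB alpha, had 7.91, 6.65 and 7.13 at day 12 and 9.76, 8.33, 9.04 and 9.17 at day 0, a 3.59-fold fall (-1.84 ± 0.39, adjusted p = 0.0123). Dbp, a clock output factor, fell 2.87-fold (-1.52 ± 0.32, adjusted p = 0.0118). The days did not overlap in either gene, and the hour at which ankles were taken is not given in the labels. Without day 12 replicate 2 or 3 both calls were lost, with adjusted p of 0.110 and 0.0588 for Nr1d1 and of 0.0878 and 0.0861 for Dbp. Of 31 respiratory chain genes 1 fell, 0 rose and the median was -0.13, the one being Ndufv1 (1.54-fold, adjusted p = 0.0341, 0.237 without day 12 replicate 2). Of 22 antioxidant and detoxifying genes 2 fell, 0 rose and the median was -0.05, with Gpx3 2.39-fold lower (adjusted p = 0.0297, 0.106 without day 0 replicate 4) and Gsta4 lower by 0.48 (adjusted p = 0.0268, 0.156 without day 12 replicate 2). Ndufv1, Gpx3 and Gsta4 lost the call in other fits without 1 array as well. Without day 12 replicate 3 their adjusted p were 0.0907, 0.101 and 0.0952. Glycolysis (0 of 17), endoplasmic reticulum folding (0 of 20) and epidermis genes (0 of 18) held no call. Of 24 liver genes 0 were called over all arrays, with a median of 0.41. Kng1, the kininogen gene, differed by 1.40 ± 0.66 (adjusted p = 0.321) over all arrays, but by 1.35 ± 0.28 (adjusted p = 0.0134) without the 4 ankle arrays with liver transcripts. It also passed with Alb in the fit (adjusted p = 0.0280). Without day 0 replicate 1 the Kng1 difference was 2.13 (adjusted p = 0.0341). That fit kept day 12 replicate 1 with its liver transcripts, and so does not bear on Kng1 apart from them.

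The calls of 4 other large falls depended on single arrays. Ctsf, cathepsin F, fell 2.88-fold (-1.52, adjusted p = 0.00947), and its difference was -1.34 without day 12 replicate 2 (adjusted p = 0.0801) and -1.33 without day 12 replicate 3 (0.0721). Cpe, a carboxypeptidase of prohormones, fell 2.78-fold (-1.48, adjusted p = 0.0163), with -1.41 without day 12 replicate 2 (adjusted p = 0.0953). The matrix protein genes Matn4, 2.76-fold lower (adjusted p = 0.0436), and Coch, lower by 1.78 on the log2 scale (adjusted p = 0.0297), had differences of -1.47 (adjusted p = 0.157) and -1.65 (0.166) without day 12 replicate 2. Matn4 was at -1.05 (adjusted p = 0.275) without day 12 replicate 3. It also lost its call without day 0 replicate 1 (0.0997), 3 (0.103) or 4 (0.116). Coch lost it without day 0 replicate 1 (0.0724) or 3 (0.0816) and without day 12 replicate 1 (0.0871). Cpe lost it without day 0 replicate 3 (0.0507) or day 12 replicate 1 (0.0526), and with the mean of its probe sets (0.0827). Without the 4 ankle arrays with liver transcripts, 15 of the 15 largest rises remained called, at 2.39 to 5.52 and adjusted p up to 0.0114. So did 14 of the 15 largest falls, the exception being Coch (adjusted p = 0.132). These rises and falls were chosen by their calls in arrays that this fit mostly shares, which makes a kept call likely by the choice alone. Of all 71 genes named here as called, 14 lost the call in that fit, which besides those given above were Sfrp2, Dkk3, Fcgr2b, Fbln2, Selp, Gpx3, Cidec, Lipe, Il1r1, Il6 and Isg15 (adjusted p from 0.0520 to 0.194). With the beta-actin ratio in the fit 34 lost it, with adjusted p from 0.0506 for Ephx1 to 0.460 for Actc1. Among the 15 largest rises that was Arg1 alone, whereas of the 15 largest falls Lyve1, Gsn, Ltc4s, Cdh13, Fxyd2 and Retn kept the call. Tnfsf11 (adjusted p = 0.0630), Pdpn (0.0800) and Sfrp2 (0.0800) also lost it. A lost call did not always go with a smaller difference. With that ratio Actc1 shrank from -1.88 to -0.87, whereas Coch (-2.03) and Cidec (-1.63) lay further from 0 than without it. With Alb in the fit Lum (adjusted p = 0.00737), Ctss (0.0102), Emcn (0.0187) and Ccl3 (0.0470) passed, which they did not over all arrays without it.

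Against day 3, early in the disease, day 12 ankles had more C1qtnf3, Mmp13, Mmp9 and tenascin C transcript, while the monocyte attractants did not pass. In limma 26 genes were higher (0.315%) and 4 lower (0.0485%) at day 12 than at day 3, together 30 (0.364%), with 497 at an unadjusted p under 0.05 (6.02%). C1qtnf3 had 8.86, 10.13 and 9.07 at day 12 and 3.70, 4.48 and 4.55 at day 3, a difference of 5.11 ± 0.49 (adjusted p = 1.15e-05). Mmp13 had 8.68, 7.36 and 9.07 at day 12 and 4.32, 4.70 and 4.45 at day 3, a difference of 3.88 ± 0.35 (adjusted p = 9.61e-06). Both genes were still near their day 0 values at day 3. Crabp2 differed by 2.91 ± 0.25 (adjusted p = 6.11e-06), Mmp9 by 2.51 ± 0.27 (adjusted p = 4.54e-05), Tnc by 1.93 ± 0.24 (adjusted p = 0.000360) and Acan by 1.95 ± 0.33 (adjusted p = 0.00878), each from a day 3 mean under background. Acan no longer passed in 3 fits that left out an array, namely day 3 replicate 2 (adjusted p = 0.0656), day 3 replicate 3 (0.0502) and day 12 replicate 2 (0.0554).

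Saa3 and the monocyte attractants did not pass between these days. Saa3 had 11.947, 12.097 and 11.450 at day 12 and 11.72, 10.10 and 10.77 at day 3 (0.97 ± 0.38, adjusted p = 0.638). Ccl2 had 8.53, 8.22 and 7.46 at day 12 and 8.89, 8.73 and 8.37 at day 3, a difference of -0.59 ± 0.40 (adjusted p = 0.930), and Ccl7 differed by -0.74 ± 0.28 (adjusted p = 0.603). The arrays overlapped in Saa3 and just so in Ccl2. Among CXCR2 ligands Cxcl2 was higher at day 12 by 1.53 ± 0.26 (adjusted p = 0.00878, lost without day 3 replicate 1 at 0.0608 and without day 12 replicate 3 at 0.0624). Cxcl5 differed by 2.08 ± 0.48 (adjusted p = 0.0802, and 0.0244 without day 12 replicate 1) and Cxcl1 by 1.14 ± 0.51 (adjusted p = 0.778). Mmp3 was higher by 1.87 ± 0.31 (adjusted p = 0.00824, 0.0664 without day 3 replicate 2) and S100a8 by 1.53 ± 0.29 (adjusted p = 0.0229, 0.133 without day 3 replicate 2). The 4 genes that were lower at day 12 than at day 3 were Fxyd2 (-1.08), Retn (-1.06), the secretory granule gene Scg3 (-0.85) and Car8 (-0.65), a protein related to carbonic anhydrases. Each of these 4 calls was lost without day 12 replicate 3, with adjusted p of 0.158, 0.0840, 0.0533 and 0.158 in the same order, and without day 3 replicate 2, with 0.133, 0.216, 0.133 and 0.3002. Without the 4 ankle arrays with liver transcripts S100a8 (adjusted p = 0.0996), Retn (0.116), Scg3 (0.0879) and Car8 (0.0851) lost their calls against day 3 and Cxcl5 gained one (0.0286). Fxyd2 lost its call with the beta-actin ratio in the fit (adjusted p = 0.0635), and with a floor the Car8 difference was -0.02 (adjusted p = 1.00).

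Against day 7 no gene passed at day 12. In limma 0 of 8251 genes were called, with 263 at an unadjusted p under 0.05 (3.19%). Cilp2 had 11.54, 11.29 and 11.84 at day 12 and 10.86, 10.39, 10.01 and 10.09 at day 7 (1.22 ± 0.26, adjusted p = 0.979). Mmp9 had 8.61, 8.03 and 8.41 at day 12 and 9.88, 9.58, 8.95 and 8.86 at day 7 (-0.97 ± 0.25, adjusted p = 0.979). Mmp13 had 8.68, 7.36 and 9.07 at day 12 and 6.98, 7.41, 7.17 and 7.43 at day 7 (1.12 ± 0.33, adjusted p = 0.979). The days did not overlap in Cilp2 and Mmp9 and overlapped in Mmp13. Of all genes, 1.87% were higher and 2.98% lower in every day 12 array than in every day 7 array.

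Against day 18 no gene passed either. In limma 0 of 8251 genes were called, with 93 at an unadjusted p under 0.05 (1.13%). Ltf had 5.99, 5.99 and 6.23 at day 12 and 6.83, 6.92 and 7.60 at day 18 (-1.05 ± 0.18, adjusted p = 0.126). Camp differed by -1.30 ± 0.26 (adjusted p = 0.340) and Ngp by -1.46 ± 0.32 (adjusted p = 0.762). In these granule genes all ankles of day 12 were below all ankles of day 18, as were 4.24% of all genes, while 3.03% were higher in every day 12 array. Ccl2 differed by 0.93 ± 0.40 and Ccl7 by 0.70 ± 0.28 (adjusted p = 1.00 for both).

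**Figure D4:**
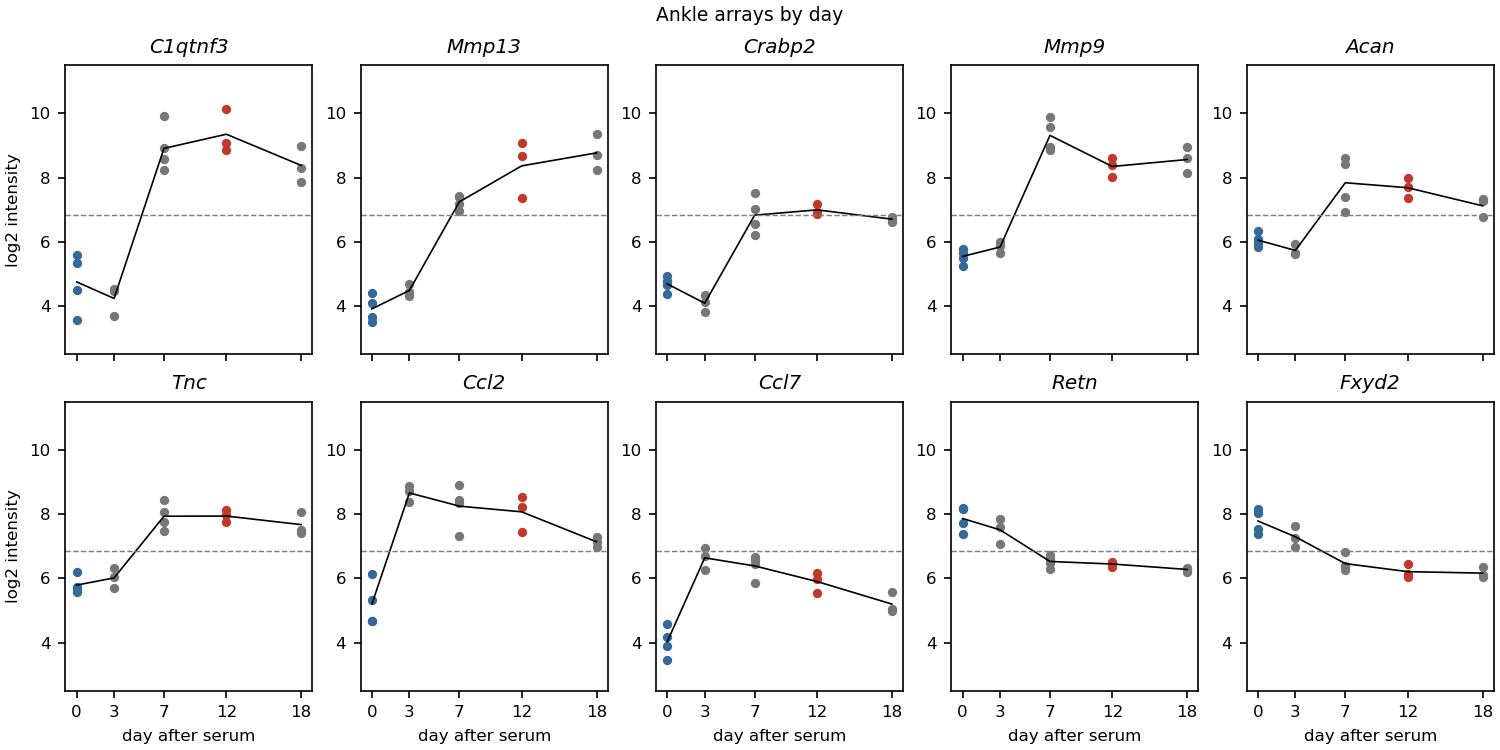
Log2 intensity (vertical axis) of each ankle array by day after serum (horizontal axis) for 10 genes that are named in the text, day 0 in blue, day 12 in red and other days in grey; the line joins the means and the dashed line marks the background level. C1qtnf3, Mmp13, Crabp2, Mmp9, Acan and Tnc stand near their day 0 level on day 3 and higher from day 7 on, while Ccl2 and Ccl7 are already high on day 3, with means of 8.66 and 6.64.

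The ankle response at day 12 differed from that of blood leukocytes of the same days. The interaction compares day 12 minus day 0 in ankle with the same difference in blood. In limma 89 genes responded higher in ankle (1.08%) and 69 lower (0.836%), together 158 (1.91%). Saa3 had 4.31, 4.72 and 5.15 in blood at day 12 and 4.49, 4.54 and 4.46 at day 0. The difference of the responses was 5.46 ± 0.45 (adjusted p = 6.02e-09). Blood values of Saa3 and of C1qtnf3, Mmp13, Mmp3, Arg1 and Lyve1 lay under background on both days. Clec4d was measured in blood as well, with 9.27, 8.05 and 8.56 at day 12 and 8.35, 7.61 and 8.99 at day 0. Its blood arrays overlapped, and the responses differed by 3.32 ± 0.55 (adjusted p = 0.000665).

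Of the 6 largest rises in ankle all passed the interaction, with differences of 3.06 to 5.46, Arg1 being the smallest (adjusted p = 0.0155). The rises and falls were chosen by their ankle difference in the same ankle arrays, which makes a pass likely by the choice alone. Where blood lay under background on both days, the interaction mostly repeats the ankle difference. Among the 6 largest falls Lyve1 (-2.56 ± 0.45, adjusted p = 0.00128), Gsn (-2.38 ± 0.37, adjusted p = 0.000287), Ltc4s (-1.91 ± 0.40, adjusted p = 0.00816) and Nr1d1 (-1.90 ± 0.47, adjusted p = 0.0254) passed. Actc1 (-1.92, adjusted p = 0.0776) and Coch (-1.85, adjusted p = 0.0510) did not, but Actc1 passed without day 0 ankle replicate 1 (adjusted p = 0.000630) and Coch without day 0 ankle replicate 4 (0.0185). With the mean of its probe sets Ltc4s had an adjusted p of 0.0583. The call of Nr1d1 was lost in 7 fits without 1 array, for example without day 12 ankle replicate 2 (adjusted p = 0.122) or day 12 blood replicate 3 (0.0806).

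**Figure D5:**
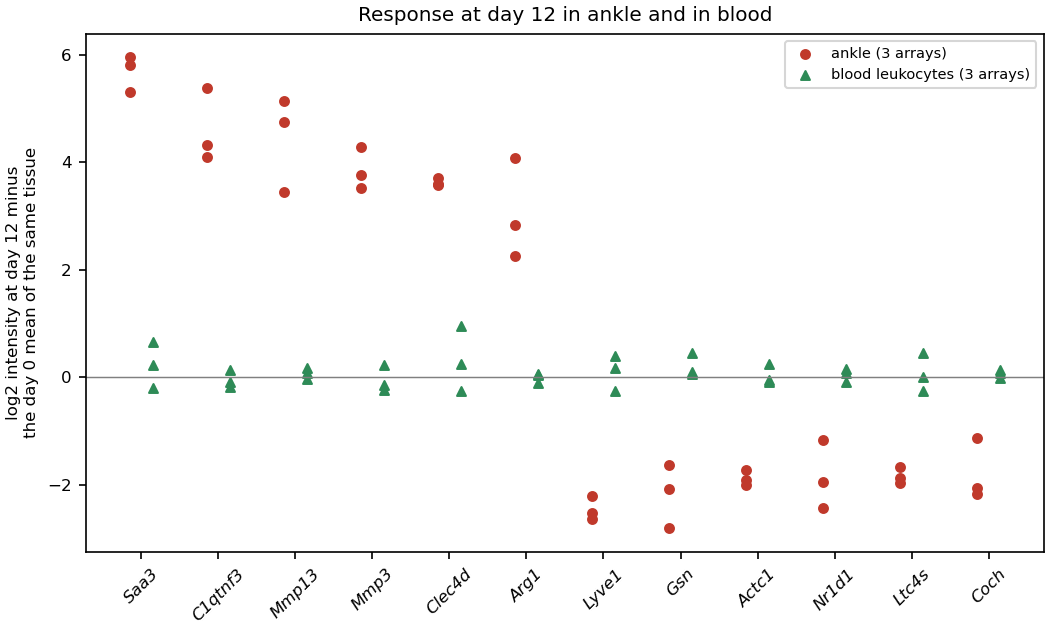
Log2 intensity at day 12 minus the day 0 mean of the same tissue (vertical axis) for the 6 genes that rose most and the 6 that fell most in ankle, each of the 3 ankle arrays as a red circle and each of the 3 blood arrays as a green triangle. Blood arrays stay within 1 log2 unit of 0 in all 12 genes, while the ankle arrays lie apart from them on 1 side in each gene. The genes were chosen by their difference in these ankle arrays.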

How the data were processed

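Whole ankle and blood leukocyte RNA was measured on mouse expression arrays of 12488 probe sets, 1 array per sample. The deposited table holds intensity values on a linear scale, normalised by the authors with RMA per the submitters' processing notes; its version is not stated there. Per the labels, ankle RNA was amplified by in vitro transcription in 2 rounds, and the labels name both an SDS and urea extraction and Trizol for it. Log2 of the intensity was used with no further normalisation. Of the probe sets, 10833 had 1 gene symbol, 396 several and 1259 none or were controls. The probe set with the highest mean over 49 arrays stood for each of 8251 genes (2073 had more than 1). The 95th percentile of 34 negative controls served as background level. RMA draws low intensities together, which shrinks differences of dim genes. With few arrays a day, their number limits the precision.

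Groups came from the labels. Differences were tested two-sided with limma 3.58.1 in R 4.3.3 (lmFit, eBayes with an intensity trend) over all ankle arrays with 1 mean per day, and with the blood arrays for the interaction, with Benjamini-Hochberg adjustment over all genes and a threshold of 0.05. The code was tested on simulated data. Named genes were the 15 largest rises and 15 largest falls without overlap, up to 4 members per list with the smallest p, members opposite to their list, the CXCR2 genes, at most 6 in each direction for the other days and for blood, and liver genes. Members, lists and alternatives were chosen with earlier results of these data known. Alternatives were other normalisations, filters, probe set rules, covariates, fits and leaving out arrays. Promoters came from RefSeq, GRCm38.p6.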

Additional observations from a re-analysis of the deposited data

Results flagged for a closer look

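In 4 of 81 groups of 4 ankle arrays, 1 array stood far from the rest by Dixon's criterion, which chance meets in about 1 of 20 groups. At day 0, replicate 1 was far above the rest in Alb (8.95, others 4.79 to 5.19) and in Arg1 (6.49, others 4.13 to 4.26), and far below the rest in Actc1 (8.70, others 10.77 to 11.16). At day 0, replicate 2 was above the rest in Il1r1 (6.14, others 5.19 to 5.31). Day 0 replicate 1 is the array with liver transcripts, and its part in the Arg1 and Actc1 values was not tested beyond the fits without it.

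The response at day 12 differed between ankle and blood by the interaction in limma in 10 named genes. These came from the largest rises and falls of the same ankle arrays, which makes a pass likely by the choice alone. In Saa3, C1qtnf3, Mmp13, Mmp3, Arg1 and Lyve1 blood lay under background on both days. The response was higher in ankle than in blood for Saa3 (5.46), C1qtnf3 (4.64), Mmp13 (4.37), Mmp3 (3.91), Clec4d (3.32) and Arg1 (3.06). It was lower in ankle than in blood for Lyve1 (-2.56), Gsn (-2.38), Ltc4s (-1.91) and Nr1d1 (-1.90), all on the log2 scale.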

How the results depend on the processing

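For day 12 against day 0 the count of 267 genes became 2592 with array weights, 458 with all 49 arrays in 1 fit, 130 with only the 2 groups compared, 95 with the beta-actin ratio and 479 with Alb as a covariate, and 114 (without day 12 replicate 2) to 558 (without day 0 replicate 2) without 1 array. For day 3 the count of 30 became 19 without the dimmest genes, 19 with a floor, 509 with array weights, 52 with all arrays, 17 with only the groups compared, 51 with Alb as a covariate and 9 to 21 without 1 array. For day 7 the count of 0 became 1 with all arrays, Cilp2 (adjusted p = 0.0153), and was 0 in the fits without 1 array. For day 18 the count of 0 became 39 with array weights, 1 with all arrays and 0 to 1 without 1 array, and array weights called Ltf (adjusted p = 0.00297). For ankle against blood the count of 158 became 3127 with array weights, 72 with only the groups compared, 252 with the beta-actin ratio, 265 with Alb as a covariate and 72 to 479 without 1 array. With the replicate number as a block the counts were 500 (day 0), 67 (day 3), 2 (day 18, Ltf at 0.0362 and Camp at 0.0322) and 303 (blood), but same-numbered arrays of day 12 and day 0 correlated in their deviations at 0.161, 0.0611 and 0.256, and the numbers were not taken as pairs. The difference of Alb between day 12 and day 0 reversed with array weights (-0.24), without the ankle arrays with liver transcripts (-0.40) and without day 12 replicate 1 (-1.38), in a range of -1.38 to 1.65 without 1 array. Against day 0 the 154 rises and 113 falls became 163 and 218 without the ankle arrays with liver transcripts, 214 and 244 with all arrays, 223 and 277 with the block, 1243 and 1349 with array weights and 163 and 175 without day 12 replicate 1, so that rises outnumbered falls only in the other fits. For ankle against blood, 89 higher and 69 lower became 98 and 127 without those arrays and 1463 and 1664 with array weights. With a floor, Actc1, Cidec, Coch, Dkk3, Fbln2, Gpx3, Hba-a1 and Matn4 (adjusted p from 0.0532 to 0.121) lost the call against day 0. Of 1688 values of named genes against day 0 under alternatives, 1461 kept their direction and side of the threshold, 192 lost the call and 32 gained one. Except where an alternative leaves out arrays or genes, the cause was not tested, and genes near the negative controls are limited by signal over background.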

Other observations

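Synovial fluid cells of day 12 (3 arrays, RNA extracted with Trizol per the labels) entered no test. In them S100a8 stood at 12.26, 12.34 and 12.36, Clec4d at 11.51, 11.18 and 11.46, Arg1 at 11.21, 11.31 and 11.31 and Cxcl2 at 10.38, 9.78 and 10.27 on the log2 scale. C1qtnf3, which rose by 4.60 in ankles at day 12, had 3.87, 4.49 and 3.81 in fluid cells, all under the background level of 6.85. Saa3 had 9.93, 10.49 and 9.93 in fluid cells and Mmp3 had 9.81, 8.55 and 9.63.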
